A study of Mus musculus with 11 samples.

Results

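Trp63, Id4, Sox10, Bcl11b, Mef2c and Myocd are transcription factor genes tied to the basal, or myoepithelial, layer of the mammary gland. They were taken by name, and every array probe assigned to one of them through its RefSeq transcript was kept and is described separately. This gave 8 probes for the 6 genes, out of 20145 genes with a named probe on the array. Trp63 and Bcl11b have 2 probes each and the other genes have 1. The data show Trp63 (by 1 of its 2 probes) and Id4 at far higher levels in basal than in luminal cells under either hairpin. By 1 of its 2 probes, Bcl11b was at least 2.12-fold higher in basal cells in shROR2 and at least 4.66-fold higher in shLUC. Sox10 was lower in basal than in luminal cells on every array, past the threshold of the test in shROR2. Mef2c was not well above background in luminal shLUC but was in the other groups, and Myocd was not on any array. Between the hairpins no probe of these genes passed the threshold. Id4 and 1 probe each of Trp63 and Bcl11b were lower on every basal shROR2 array than on any basal shLUC array. The other Trp63 probe was slightly higher on every basal shROR2 array after scaling. Over all tested probes, 12.1% were lower in this way and 6.58% higher.

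The arrays measured RNA of mammary epithelial cells from mouse outgrowths, with 4 groups: basal shROR2 (3 arrays), basal shLUC (3), luminal shROR2 (2) and luminal shLUC (3). A further luminal shROR2 sample is not analysed here. All groups share the same history. Primary mammary epithelial cells were transduced overnight with a lentivirus carrying either the hairpin against Ror2, a receptor of non-canonical Wnt signalling, or the control hairpin shLUC. They were then taken up in matrigel for injection, and outgrowth cells were separated by CD24 and CD29 at the cell surface. Strain, age and the share of transduced cells are not stated in the sources used here. The labels speak of biological triplicates without tying samples to animals, so p-values measure the spread between these samples.

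p63, the protein of Trp63, is a relative of p53 that maintains the basal layer of stratified and glandular epithelia and switches on keratins and adhesion genes there. Id4 is an inhibitor of E-protein partners of basic helix-loop-helix factors, and Sox10 is an HMG-box factor best known from neural crest, Schwann cells and melanocytes. Bcl11b is a zinc-finger repressor known from T cells and also from mammary basal cells. Mef2c is a MADS-box factor of muscle and endothelium, and myocardin (Myocd) is the coactivator of SRF that drives smooth muscle genes, the contractile programme that myoepithelial cells share.

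RefSeq promoter windows of build GRCm38.p6, from 250 bases before to 50 after an annotated start, were given for 3 of the 6 genes: Id4 (1 window), Bcl11b (1) and Mef2c (3). Trp63, Sox10 and Myocd had none in the table. The windows of Id4 and Bcl11b are shown because these genes were higher in basal cells under both hairpins, and the first Mef2c window along the chromosome because Mef2c was above background in luminal cells with the Ror2 hairpin and not with the control. Letters are 5′ to 3′ on the strand of the gene. Capitals mark matches, on either strand, to the E-box CANNTG, the GC box GGGCGG, the TATA motif TATAAA or the SOX core ACAAT. The CArG box was searched as well and matched none of the 5 windows.
Id4, chr13:48260866-48261165, plus strand: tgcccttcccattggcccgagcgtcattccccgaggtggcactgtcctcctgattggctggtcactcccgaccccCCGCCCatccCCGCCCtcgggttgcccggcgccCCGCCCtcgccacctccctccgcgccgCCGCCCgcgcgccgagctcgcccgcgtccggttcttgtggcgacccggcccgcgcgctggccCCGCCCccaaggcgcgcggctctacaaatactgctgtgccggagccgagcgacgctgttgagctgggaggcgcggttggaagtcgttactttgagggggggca
Bcl11b, chr12:108003365-108003664, minus strand: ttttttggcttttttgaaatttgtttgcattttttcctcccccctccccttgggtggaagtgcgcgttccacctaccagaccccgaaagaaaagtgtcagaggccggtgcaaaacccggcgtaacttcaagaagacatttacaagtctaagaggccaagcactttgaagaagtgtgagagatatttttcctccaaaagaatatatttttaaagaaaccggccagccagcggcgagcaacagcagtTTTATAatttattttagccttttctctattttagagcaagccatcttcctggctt
Mef2c, chr13:83503784-83504083, plus strand: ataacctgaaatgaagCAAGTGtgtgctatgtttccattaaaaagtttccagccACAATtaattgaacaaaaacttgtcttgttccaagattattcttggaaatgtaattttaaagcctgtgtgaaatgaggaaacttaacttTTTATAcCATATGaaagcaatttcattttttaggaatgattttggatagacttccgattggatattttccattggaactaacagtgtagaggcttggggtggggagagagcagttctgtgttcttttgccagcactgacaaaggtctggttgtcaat
The Id4 window was 73.3% G or C and held 5 GC boxes and no E-box, while the Bcl11b window was 43.0% G or C and held 1 TATA motif. The Mef2c window was 35.7% G or C and held 2 E-boxes, 1 TATA motif and 1 SOX core. No base lay in more than 1 match. Over all 32851 windows in the table, an E-box was found in 72.3%, a GC box in 35.7%, a SOX core in 31.0%, a TATA motif in 13.6% and a CArG box in 1.6%, and the median G or C content was 52.7%. These matches only describe the letters of the windows. The array probes do not tell which Mef2c start was used.

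Of 55681 probes, 52.8% to 59.5% lay well above background per array, and arrays lay on 2 slides that each held every group. Replicates of basal shROR2 correlated least, at 0.938 to 0.950, against 0.975 to 0.981 in basal shLUC. Ror2, read by 1 probe, gave 3.03 to 16.8 in basal shROR2, 10.1 to 12.1 in basal shLUC, 3.54 and 8.47 in luminal shROR2 and 3.14 to 3.48 in luminal shLUC. It was well above background only on the array labelled basal shROR2 replicate 1. Between the hairpins the exact permutation p was 0.7 in basal cells and 0.3 in luminal cells. Since 0.1 is the smallest p possible here, this test could not pass a threshold of 0.05 and does not tell whether Ror2 differed. All 9 basal markers (keratins, Acta2 and others) were higher and all 10 luminal markers lower in basal than in luminal cells under each hairpin, so the sorted cells carried the markers of their labels. Levels below are Agilent processed signals. Differences and tests are on log2 signals scaled to the 75th percentile of each array, as log2 difference ± standard error, with adjusted p from limma over 33612 probes. A probe is called when its adjusted p is under 0.05. It entered the test if it lay well above background on at least 3 arrays, which 6 of the 8 probes did.

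Between basal and luminal cells, 4 of the 6 tested probes were called in shROR2 outgrowths, Trp63 (1 probe), Id4 and Bcl11b as higher and Sox10 as lower, beside 23.5% of all probes (11.2% higher and 12.3% lower). In shLUC outgrowths 4 of 6 were called as well, namely Trp63 (1 probe), Id4, Bcl11b and Mef2c, all higher, beside 27.3% of all probes (14.5% higher and 12.8% lower). Id4 and Bcl11b passed the filter through their 6 basal arrays alone and so had to be higher there, which makes these counts a description. The same holds below for any listed gene that was not well above background on any luminal array. The arrays of basal and luminal cells did not overlap for 5 of 6 probes in shROR2, beside 46.1% of all probes, and for 6 of 6 in shLUC, beside 52.6%. Between the hairpins, 0 of 6 probes were called in basal cells, beside 0.887% of all probes (0.354% higher and 0.533% lower), and 2 of 6 had an unadjusted p under 0.05. In luminal cells 0 of 6 were called, beside 0.00298%, and 1 of 6 had an unadjusted p under 0.05, but Id4 and Bcl11b were dim in both luminal groups, so their fitted values there compare no levels. Basal arrays of the hairpins did not overlap for 4 of 6 probes, 3 lower and 1 higher in shROR2, beside 18.6% of all probes (12.1% lower and 6.58% higher). Luminal arrays did not overlap for 1 of 6, beside 28.8%. The plot of levels on every array shows these patterns, and in bulk samples such as these, fewer cells of a type and less RNA per cell cannot be told apart.

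**Figure D1:**
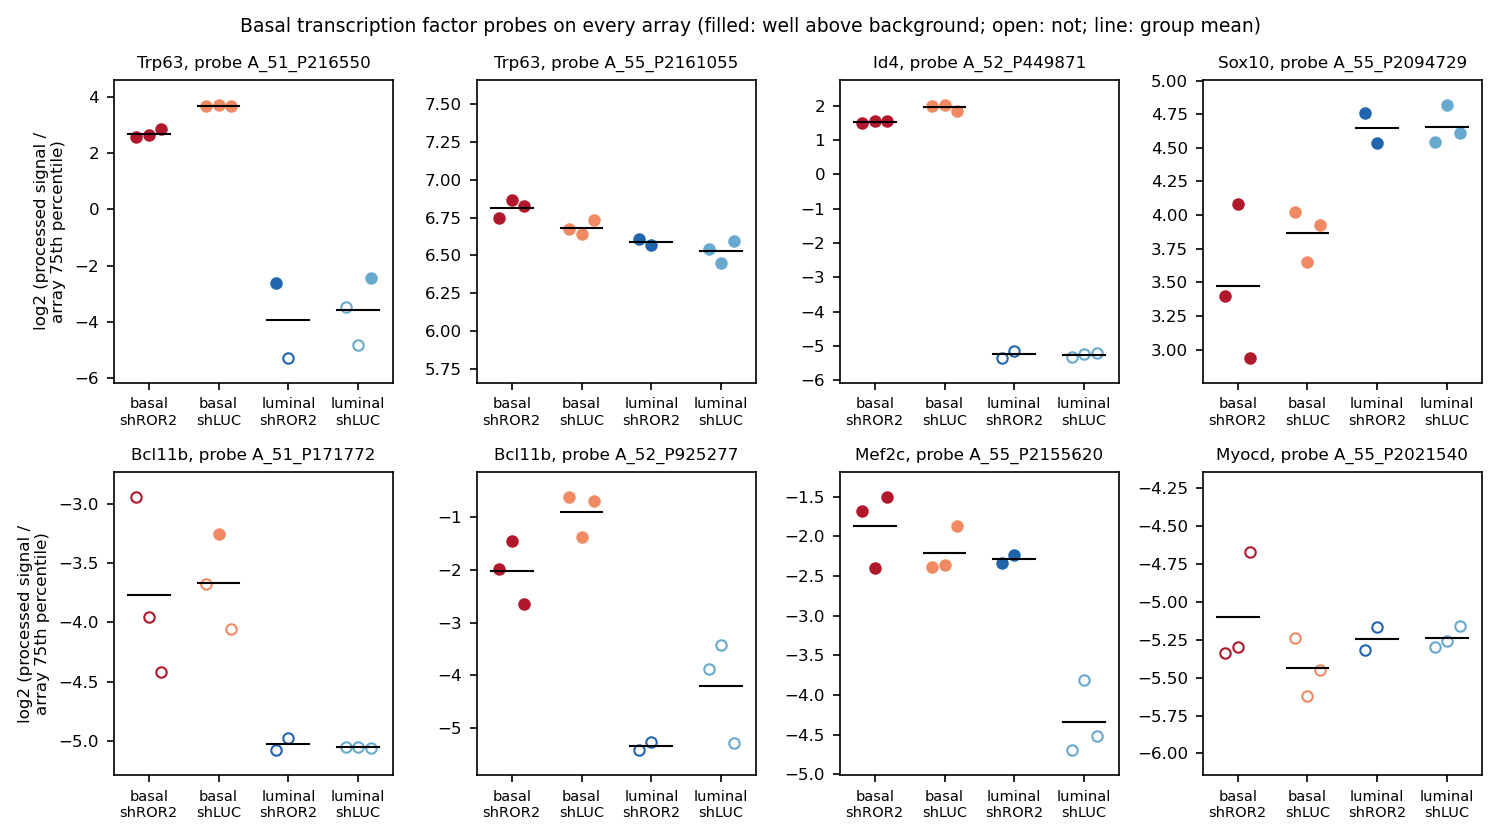
Scaled log2 signal of the 8 probes (vertical axis, log2 of processed signal over the array's 75th percentile, a separate range per panel) on the arrays of each group. Filled points are well above background, open points are not, and lines are group means. Trp63 A_51_P216550 and Id4 sit far higher in basal than in luminal groups. Bcl11b A_52_P925277 sits higher too, with all its luminal points open. Sox10 sits lower, and Mef2c is open only in luminal shLUC.

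The Trp63 probe A_51_P216550 (NM_011641, chromosome 16) read 676, 718 and 819 in basal shROR2 and 1495, 1712 and 1458 in basal shLUC. In luminal shROR2 it read 19.5 and 2.98, and in luminal shLUC 10.2, 4.06 and 21.3. All basal arrays stood far above all luminal ones, where only 1 of 2 shROR2 and 1 of 3 shLUC arrays were well above background. The basal minus luminal difference was 6.64 ± 0.78 in shROR2 (adjusted p = 3.52e-04) and 7.27 ± 0.70 in shLUC (adjusted p = 7.38e-05). These sizes rest on luminal values near background: with each luminal value raised at least to the lowest signal well above background on its array, basal cells were 46.1-fold higher in shROR2 and 96.5-fold higher in shLUC.

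Within basal cells, the same Trp63 probe was lower on every shROR2 array than on any shLUC array, by 1.99-fold (log2 difference -1.00 ± 0.70, 95% confidence interval -2.58 to 0.59, adjusted p = 0.531). The exact permutation p over the 6 basal arrays was 0.1, the smallest possible. The difference was -0.96 on slide 1 (2 arrays per group) and -1.07 on slide 2 (1 per group), and -0.93 without the array labelled basal shROR2 replicate 1 (adjusted p = 0.569). The fit shares 1 spread among groups, and the standard deviation of this probe was 0.16 in basal shROR2 and 0.02 in basal shLUC but 1.87 in luminal shROR2 and 1.19 in luminal shLUC, where it lies near background. Fitted on the basal arrays alone, the difference was -1.00 ± 0.14 with an unadjusted p of 4.58e-04 and an adjusted p of 0.196, in a fit that called 0 of all probes and gave 3588 an unadjusted p under 0.05. In the authors' normalized table, whose log2 values correlated at 0.996 to 0.998 with the uncorrected signal, the probe read 813, 854 and 972 in basal shROR2 and 1611, 1677 and 1545 in basal shLUC. On those values Trp63 was called, at -0.88 with adjusted p = 0.00379, and likewise after normexp correction, at -0.88 with adjusted p = 0.00387.

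Sums of cell type markers were set beside the basal hairpin comparison. The summed scaled signal of the 9 basal markers was 1519 to 1579 in basal shROR2, against 1624 to 1868 in basal shLUC. That of the 10 luminal markers was 69.5 to 91.2 in basal shROR2, against 60.0 to 63.3 in basal shLUC. None of these markers was called between the hairpins. The 9 endothelial markers summed to 42.7 to 51.5 in basal shROR2, against 22.5 to 28.6 in basal shLUC, with a median difference of 0.93 and 1 called, Plvap, a protein of endothelial diaphragms, as higher (1.35, adjusted p = 0.0450). Over all probes, 0.354% were called as higher in this comparison, and none was called with the basal groups fitted alone. The 7 fibroblast markers summed to 51.6 to 68.7 in basal shROR2, against 53.1 to 57.7 in basal shLUC, and 0 were called. The part of all these markers in the lower Trp63, Id4 and Bcl11b signals was not tested.

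The other Trp63 probe, A_55_P2161055 (NM_001127261), gave a different picture. It read 12250, 13450 and 12720 in basal shROR2, 11860, 13110 and 12200 in basal shLUC, 11800 and 10930 in luminal shROR2, and 10510, 10130 and 11370 in luminal shLUC. It was bright on all 11 arrays, and its whole range was 0.42 on the log2 scale. Basal minus luminal differences were 0.23 ± 0.11 in shROR2 (95% confidence interval -0.02 to 0.47, adjusted p = 0.173) and 0.15 ± 0.10 in shLUC (-0.07 to 0.37, adjusted p = 0.285). After scaling, the basal shROR2 arrays stood just above the basal shLUC arrays, by 0.13 ± 0.10 (adjusted p = 0.562). The probes of Trp63 thus disagree, and the transcripts they are assigned to are different RefSeq records of the gene. Where each probe lies in its transcript was not used here, and what the bright probe detects was not tested.

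Id4 (A_52_P449871, NM_031166, chromosome 13) read 320.7, 336 and 331 in basal shROR2 and 465, 530 and 412 in basal shLUC. It was not well above background on any luminal array, with signals of 3.00 and 3.26 in shROR2 and 2.84, 3.08 and 3.18 in shLUC. Basal cells were at least 25.0-fold higher in shROR2 (fitted difference 6.77 ± 0.12, adjusted p = 2.30e-08) and at least 33.7-fold higher in shLUC (7.20 ± 0.11, adjusted p = 3.20e-09). Such bounds, here and below, divide the bright group's mean by a floor: per dim array, the lowest signal that any probe well above background had there, or the dim probe's own value where that was larger.

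Within basal cells, all 3 Id4 values of shROR2 lay below the 3 of shLUC, 1.34-fold lower on average (log2 difference -0.42 ± 0.11, 95% confidence interval -0.66 to -0.18). The unadjusted p was 0.00315 and the adjusted p was 0.107. The exact permutation p was 0.1, and the difference was -0.40 on slide 1 and -0.47 on slide 2. Without the array labelled basal shROR2 replicate 1 it was also -0.40 (adjusted p = 0.114). Over 22 alternative settings it stayed negative, between -0.48 and -0.30, with adjusted p from 0.0505 to 0.384. In luminal cells Id4 was dim under both hairpins, and no fold between them is given. Its promoter window, shown above, is the one with 5 GC boxes.

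Bcl11b was read by a probe that passed the filter and one that did not. Probe A_52_P925277 (NM_001079883, chromosome 12) read 28.8, 41.9 and 17.9 in basal shROR2 and 74.8, 50.6 and 70.7 in basal shLUC. It was not well above background on any luminal array, where signals were at most 10.8. Basal cells were at least 2.12-fold higher in shROR2 (fitted 3.30 ± 0.53, adjusted p = 0.00216) and at least 4.66-fold higher in shLUC (fitted 3.29 ± 0.48, adjusted p = 9.68e-04).

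The 3 basal shROR2 arrays gave less Bcl11b signal than any basal shLUC array, 2.19-fold less on average (log2 difference -1.13 ± 0.48, 95% confidence interval -2.21 to -0.04). This had an unadjusted p of 0.0430 and an adjusted p of 0.296, with an exact permutation p of 0.1. The difference was -1.65 on slide 1 and -0.08 on slide 2, so the arrays of slide 2 hardly differed. Without the array labelled basal shROR2 replicate 1 it was -1.15 (adjusted p = 0.299). Probe A_51_P171772 (NM_021399) was well above background on 1 array only, basal shLUC replicate 2, and did not enter the limma test. It read 14.8, 7.46 and 5.25 in basal shROR2 and 9.07, 13.8 and 6.89 in basal shLUC, which overlap, and 3.67 or less on every luminal array. Between the hairpins in basal cells its exact permutation p was 0.9. T cell markers, set beside Bcl11b because T cells express it, summed to 3.71 to 5.79 in basal shROR2 and 4.72 to 5.44 in basal shLUC, against 4.98 to 6.06 in luminal shROR2 and 5.11 to 5.80 in luminal shLUC. Of these 10 markers, 5 were well above background on every array of basal shROR2, and Cd2, Cd3d and Cd3g were dim on all arrays. Of the 6 tested, 1 was called higher in basal cells in shLUC, Cd5 (0.61, adjusted p = 0.0213), beside 14.5% of all probes. In shROR2 0 of the 6 were called.

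Sox10 (A_55_P2094729, NM_011437, chromosome 15) was well above background on all 11 arrays. It read 1202, 1956 and 863 in basal shROR2, 1889, 1652 and 1742 in basal shLUC, 3278 and 2673 in luminal shROR2, and 2638, 3263 and 2867 in luminal shLUC. Every basal array lay below every luminal array, in contrast to the other tested genes. The basal minus luminal difference was -1.17 ± 0.29 in shROR2 (2.25-fold lower, adjusted p = 0.0185) and -0.79 ± 0.26 in shLUC (1.73-fold lower, adjusted p = 0.0520).

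The side of the threshold on which Sox10 fell depended on the setting. In shROR2 the call was lost without luminal shROR2 replicate 1 (-1.06, adjusted p = 0.124), without replicate 2 (-1.28, adjusted p = 0.0673), with only those 2 groups fitted (adjusted p = 0.139) and with the replicate number as a block (-1.09, adjusted p = 0.0507). In shLUC it was gained under 8 of 22 settings, among them the authors' table (-0.89, adjusted p = 0.00786) and the fits without basal shROR2 replicate 2 (adjusted p = 0.00787) or replicate 3 (adjusted p = 0.0185). Between the hairpins, basal Sox10 overlapped (-0.39 ± 0.26, adjusted p = 0.505), with -0.80 on slide 1 and 0.43 on slide 2, and luminal Sox10 differed by -0.01 ± 0.29 (adjusted p = 1.00). Markers of Schwann cells summed to 3.33 to 4.70 in basal shROR2 and 5.01 to 5.57 in basal shLUC, against 10.8 to 11.2 in luminal shROR2 and 13.4 to 13.6 in luminal shLUC. Of the 8 markers, Cdh19 and Foxd3 were among those dim on all arrays, and of the 4 tested, 1 was called as higher and 2 as lower in basal cells under each hairpin. Over all probes, 11.2% were called higher and 12.3% lower in shROR2, and 14.5% and 12.8% in shLUC. Erbb3, which epithelial cells also express, was lower (-3.92 in shROR2, -4.00 in shLUC), as was Mbp, myelin basic protein (-1.18 in shROR2, -1.00 in shLUC). Pou3f1, a POU-domain factor, was at least 5.14-fold higher in shROR2 (fitted 2.59, adjusted p = 0.0377) and at least 6.29-fold higher in shLUC (fitted 3.19, adjusted p = 0.00791). It was not well above background on any luminal array, so it passed the filter through basal arrays alone and had to be higher there. Of the 7 melanocyte markers, Dct, Slc45a2 and Tyrp1 were dim on all arrays. Well above background on every array of the group were 3 in basal shROR2, luminal shROR2 and luminal shLUC, and 2 in basal shLUC. Of the 4 tested, 1 was called higher in basal cells in shROR2 and 0 were called in shLUC. The list summed to at most 2.19 in basal shROR2, 2.27 in basal shLUC, 1.71 in luminal shROR2 and 2.31 in luminal shLUC.

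Mef2c (A_55_P2155620, NM_025282, chromosome 13) gave low signals. It read 35.6, 21.8 and 39.4 in basal shROR2 and 22.1, 25.5 and 31.5 in basal shLUC. In luminal shROR2 it read 24.0 and 24.6, and in luminal shLUC 4.38, 8.26 and 5.14, where no array was well above background. The only low group was luminal shLUC, and the other 3 groups overlapped.

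The Mef2c mean in luminal shROR2 was at least 1.79-fold that in luminal shLUC (fitted 2.06 ± 0.33, 95% confidence interval 1.31 to 2.81). The unadjusted p was 1.67e-04 and the adjusted p was 0.181, and the exact permutation p was 0.1, the smallest possible. The fitted difference was 2.36 on slide 1 and 1.93 on slide 2. With array weights it was called (adjusted p = 0.0329). In the authors' table the difference was 0.36 (adjusted p = 0.569), and over all 22 alternatives the adjusted p ran from 0.0329 to 0.602. In basal cells the hairpins overlapped, at 0.34 ± 0.30 (adjusted p = 0.621). Basal minus luminal was 0.42 ± 0.33 in shROR2 (adjusted p = 0.415) and, in shLUC, at least 1.89-fold (fitted 2.13 ± 0.30, adjusted p = 7.53e-04).

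Endothelial markers were set beside Mef2c because endothelium expresses it, and fibroblast, pericyte and muscle markers are given as well. The 9 endothelial markers summed to 14.4 and 15.3 in luminal shROR2 and to 11.8 to 12.1 in luminal shLUC, set beside 42.7 to 51.5 in basal shROR2 and 22.5 to 28.6 in basal shLUC. Well above background on every array of their group were 7 of the 9 in luminal shROR2 (2 arrays) and 5 of the 9 in luminal shLUC (3 arrays). On no array of their group were 2 of the 9 well above background in luminal shROR2 and 0 in luminal shLUC. In the luminal comparison 0 of the 9 were called, and their median difference was 0.82, beside 0.01 over all probes, with Pecam1, an endothelial adhesion molecule, at 1.02 and Plvap at 1.10. The 7 fibroblast markers summed to 11.4 and 12.0 in luminal shROR2 and 6.60 to 6.77 in luminal shLUC, set beside the 51.6 to 68.7 of basal shROR2 and 53.1 to 57.7 of basal shLUC. The 8 pericyte and vascular smooth muscle markers summed to 944 and 962 in luminal shROR2 and 959 to 1091 in luminal shLUC. In basal against luminal cells, 3 of the 7 tested were called higher and 1 lower under each hairpin. The 8 skeletal muscle markers summed to 7.59 and 7.96 in luminal shROR2 and 8.14 to 9.04 in luminal shLUC. Of the 4 tested, 1 was called higher in basal cells under each hairpin. Over all probes, 12.3% were called lower in shROR2 and 12.8% in shLUC. In basal against luminal shLUC, where Mef2c was called, 6 of 9 endothelial markers (median 2.15) and 7 of 7 fibroblast markers (median 3.81) were called as higher too, beside 14.5% of all probes. In shROR2, where Mef2c was not called, these counts were 8 of 9 (median 2.26) and 5 of 7 (median 3.30), beside 11.2%. The part of these other cells in the Mef2c differences was not tested.

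**Figure D2:**
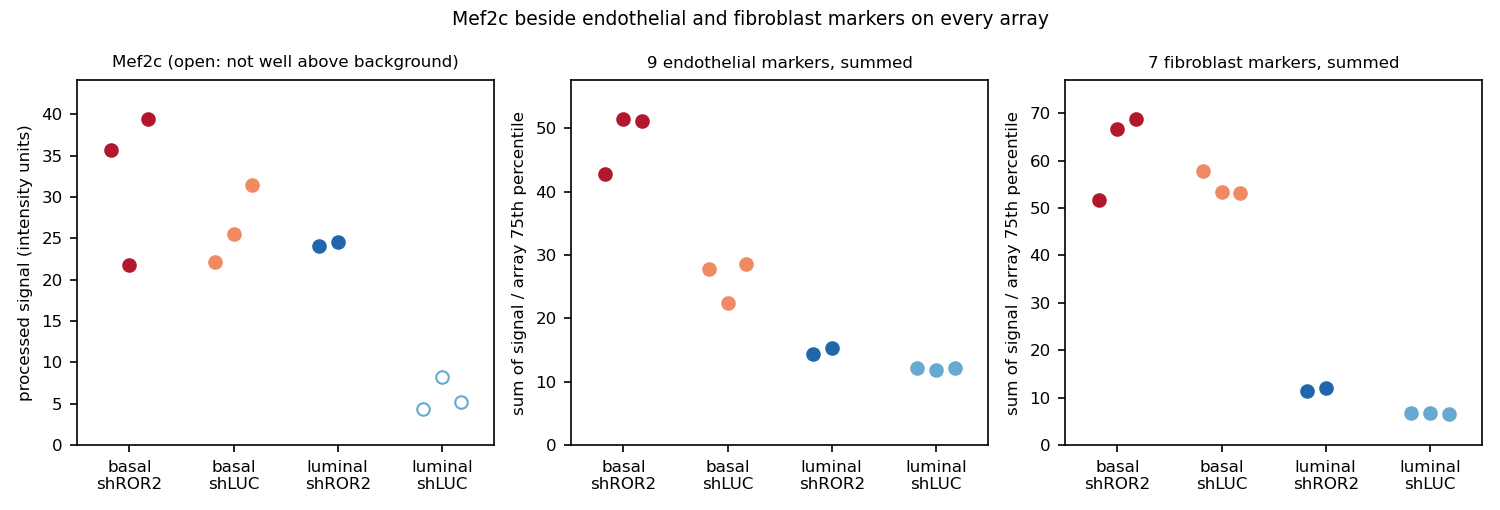
Mef2c processed signal (left), the summed scaled signal of 9 endothelial markers (middle) and of 7 fibroblast markers (right), each point 1 array and each vertical axis from 0. Mef2c is low only in luminal shLUC, while the endothelial sum lies at 42.7 to 51.5 in basal shROR2, 22.5 to 28.6 in basal shLUC, 14.4 to 15.3 in luminal shROR2 and 11.8 to 12.1 in luminal shLUC.

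Myocd (A_55_P2021540, NM_145136, chromosome 11) was not well above background on any of the 11 arrays. Group means of its processed signal were 3.39 ± 0.89 in basal shROR2, 2.79 ± 0.24 in basal shLUC, 3.12 ± 0.13 in luminal shROR2 and 3.06 ± 0.20 in luminal shLUC (SD, n = 3, 3, 2 and 3). No level, fold or test is given for it, and a transcript below this array's background could not be measured.

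**Figure D3:**
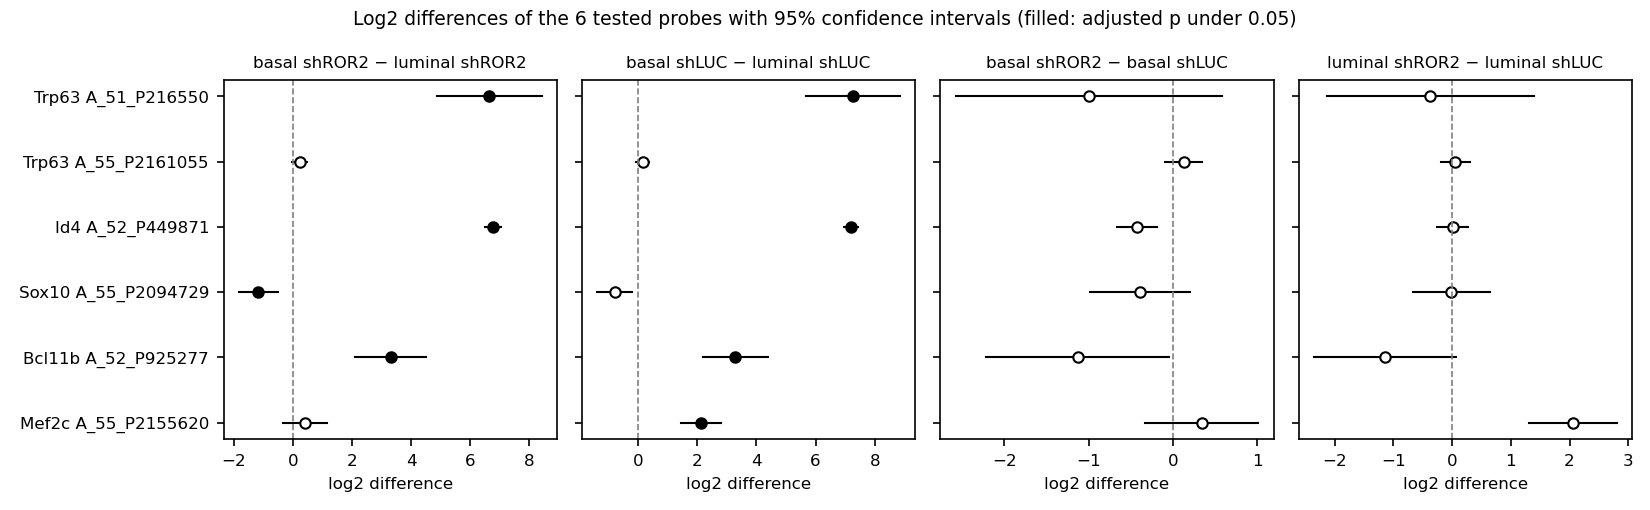
Log2 differences of the 6 tested probes (points) with 95% confidence intervals (lines) in 4 comparisons, each panel with its own horizontal range. Filled points have an adjusted p under 0.05. The calls lie in the basal to luminal comparisons, and none lies between the hairpins.

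The ranges of the differences show how the genes vary among themselves. Over the 6 tested probes the median basal minus luminal difference, with dim groups at their bound, was 0.75 in shROR2 and 1.57 in shLUC (1.86 and 2.71 as fitted), beside -0.08 and -0.05 as fitted over all probes. The median hairpin difference was -0.41 in basal cells, beside -0.05 over all probes. The test of whether the hairpin difference itself differed between basal and luminal cells called 0 of 6 probes, beside 0% of all probes (2783 probes had an unadjusted p under 0.05). Mef2c, dim in luminal shLUC, came nearest, with unadjusted p = 0.00398 and adjusted p = 0.393.

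Genes known as targets of p63 were mostly higher in basal cells. Of 21 tested, 15 were higher and 2 lower than in luminal cells in shROR2 (median 1.81 with dim groups at their bound), and 17 were higher and 1 lower in shLUC (median 2.37). Over all probes, 11.2% were called higher and 12.3% lower in shROR2, and 14.5% and 12.8% in shLUC. In both luminal groups 3 of the 21 were dim, so these passed the filter through basal arrays alone and had to be higher there. The smallest p in shLUC belonged to Krt5 (7.87, adjusted p = 4.43e-09) and Krt14 (5.35, adjusted p = 2.32e-08), keratins of the basal layer, and to Jag1, a Notch ligand (4.66, adjusted p = 1.50e-07). Krt5 and Krt14 are also among the basal markers used above. Evpl, an envelope protein of differentiating epithelium, was lower under both hairpins (-2.24 in shROR2, -2.91 in shLUC). Between the hairpins in basal cells, 2 of 21 fell in shROR2 and none rose, beside 0.533% and 0.354% of all probes. Jag1 was among them (-0.94, adjusted p = 0.0399). The calls depended on the setting: 0 to 4 of the list were called under 22 alternatives added after the values were seen, 3 without the array labelled basal shROR2 replicate 1, 1 without luminal shLUC replicate 1, 0 with any other single array left out, and 0 with the slide as a block, with array weights or with the basal groups fitted alone. Jag1 stayed negative throughout, between -0.99 and -0.87 (adjusted p = 0.00539 to 0.196). The list's median was -0.32, beside -0.05 over all probes, and in luminal cells 0 of 21 were called.

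Smooth muscle genes regulated by SRF and myocardin were high in basal cells where Myocd itself was dim. All 15 tested genes of 16 listed were higher in basal than in luminal cells, with a median of 4.48 in shROR2 and 5.18 in shLUC when dim groups stand at their bound (5.16 and 5.74 as fitted). Over all probes, 11.2% were called higher in shROR2 and 14.5% in shLUC. In both luminal groups 2 of the 15 were dim, so these passed the filter through basal arrays alone and had to be higher there. In shLUC, Acta2, smooth muscle actin, was higher by 8.22 (adjusted p = 3.20e-09), Myl9, a myosin light chain, by 7.40 (adjusted p = 4.43e-09) and Cnn1, calponin, by 7.71 (adjusted p = 5.26e-09). Between the hairpins in basal cells only Des, the muscle filament desmin, was called, as higher (1.53, adjusted p = 0.0393), beside 0.354% of all probes, and the list's median was -0.14. The Des call held under 7 of 22 alternatives (0.58 to 1.72, adjusted p = 0.00704 to 0.252), among them the fit without the array labelled basal shROR2 replicate 1 (1.64, adjusted p = 0.0315), and was lost with any other single array left out (1.24 to 1.72, adjusted p = 0.0588 to 0.102). In luminal cells 0 of 15 were called (median 0.22), with Myl9 nearest at 1.28 (adjusted p = 0.0631).

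Genes known as targets of MEF2 factors in muscle and lymphocytes did not share a direction. Of 9 tested from 10 listed, 3 were higher and 2 lower in basal cells under each hairpin. Over all probes, 23.5% were called in shROR2 and 27.3% in shLUC. With dim groups at their bound, the list's medians were 0 in shROR2 and -0.01 in shLUC (0.21 and -0.01 as fitted). Arc, an activity-regulated gene of neurons, was higher by 5.45 in shROR2 and 5.66 in shLUC, and the immediate early gene Jun was lower (-1.14 in shROR2, -1.20 in shLUC). Between the hairpins 0 of 9 were called in either compartment. Median hairpin differences were 0.24 in basal and 0.14 in luminal cells.

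**Figure D4:**
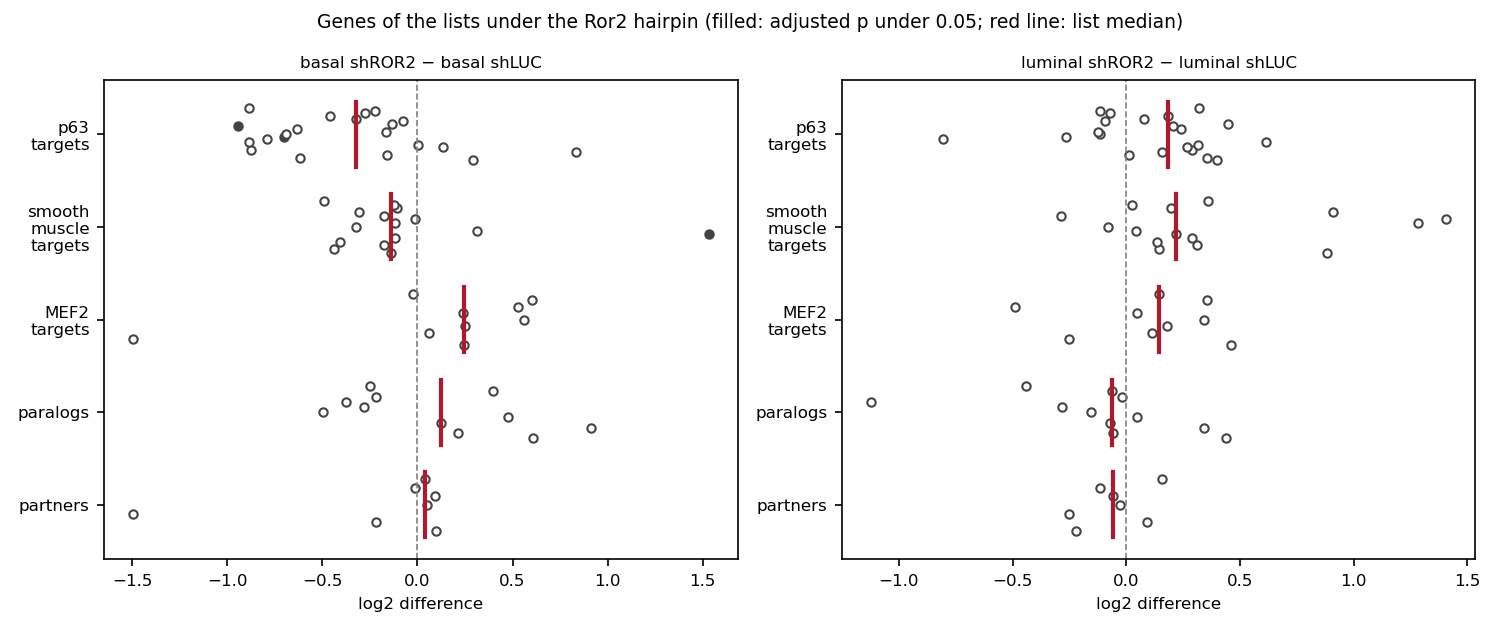
Log2 differences under the Ror2 hairpin in basal (left) and luminal cells (right) for genes of 5 lists, each point 1 gene. Filled points have an adjusted p under 0.05 and red lines are list medians. Most p63 targets lie left of 0 in basal cells (median -0.32), and 3 genes in all are filled, among them Jag1 as lower and Des as higher.

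Among 13 paralogs of the 6 genes, 11 were tested, and Bcl11a and Mef2b were dim on all arrays. In basal against luminal cells, Id1, a relative of Id4, was higher by 1.75 in shROR2 (adjusted p = 8.46e-04) and 1.59 in shLUC (adjusted p = 6.33e-04). Sox8, from the same subgroup as Sox10, was not well above background on any luminal array and was at least 1.18-fold higher in basal cells in shROR2 (fitted 2.25, adjusted p = 0.0159) and at least 1.55-fold higher in shLUC (fitted 1.50, adjusted p = 0.0477). Sox8 thus passed the filter through basal arrays alone and had to be higher there, which makes these values a description. Mrtfa, a myocardin-related coactivator of SRF, was higher by 1.35 in shROR2 (adjusted p = 0.00402) and 1.69 in shLUC (adjusted p = 4.91e-04) by its brighter probe, and by 1.09 (adjusted p = 0.0992) and 1.55 (adjusted p = 0.0152) by the other.

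Id3 passed the threshold in shROR2 (0.80, adjusted p = 0.0231) and not in shLUC (0.22, adjusted p = 0.423), and the brightest Mrtfb probe was at -0.65 under both hairpins (adjusted p = 0.0533 in shROR2 and 0.0299 in shLUC). The other Mrtfb probes were not called and had mixed signs, at 0.39 and -1.36 in shROR2 and -0.12 and 0.65 in shLUC. Whether these differ between the hairpins was tested in the same fit, which called no probe. Trp53, Trp73, Id2, Sox9, Mef2a and Mef2d were not called, with basal minus luminal differences between -0.41 and 0.38 by their brightest probes. Between the hairpins 0 of 11 paralogs were called in either compartment, with Id3 in basal cells nearest at 0.91 (adjusted p = 0.0664).

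Of 7 known partners, 3 were higher in basal cells in shROR2 and 1 in shLUC, beside 11.2% and 14.5% of all probes. The shLUC count is near that share. Tcf4, an E-protein of the kind Id factors bind, was higher in basal cells by 1.36 in shROR2 (adjusted p = 0.00152) and 1.48 in shLUC (adjusted p = 3.95e-04). Hdac4, a deacetylase that binds MEF2 factors, and Srf passed the threshold in shROR2, at 1.08 (adjusted p = 0.0218) and 0.43 (adjusted p = 0.0489), beside 0.76 (adjusted p = 0.0508) and 0.36 (adjusted p = 0.0592) in shLUC, and the test of that difference called neither. A dimmer Srf probe had the opposite sign and was not called (-0.35, adjusted p = 0.328, in shROR2 and -0.07, adjusted p = 0.836, in shLUC). Tcf3, Tcf12, Hdac5 and Hdac9 were not called, and between the hairpins 0 of 7 partners were called in either compartment.

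The genes whose profiles over the 11 arrays lay closest to each probe were found by the root mean square difference of centred log2 values. For Id4 these were Cacna2d1 (0.10), a calcium channel subunit, Krt17 (0.19), a basal keratin, and Speer5-ps1 (0.22), set against a range of 7.35 for Id4 itself. Those of Bcl11b were Fibin (0.43), Loxl3 (0.49) and Lancl3 (0.53), with a range of 4.78. For Sox10 they were Peak1 (0.15), Prkd3 (0.16) and Slc44a1 (0.16), with a range of 1.87, and for Mef2c Arhgdib (0.44), Arr3 (0.45) and Tmem37 (0.47), with a range of 3.18. The bright, nearly flat Trp63 probe was closest to Foxl2 (0.04), Pigr (0.06) and Brd2 (0.06). For the other Trp63 probe, added after its values were seen, the nearest were Elovl4 (0.54), a fatty acid elongase, and Col17a1 (0.67), the hemidesmosomal collagen on the list of p63 targets, then Speer5-ps1 (0.73), with a range of 8.98. These distances describe likeness over these arrays only.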

How the data were processed

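RNA of sorted cells was amplified and hybridized to 1-colour Agilent mouse arrays, per the labels' protocols. Per the file headers, Feature Extraction 11.0.1.1 made the deposited processed intensity by subtracting background within each array. The authors' deposited table holds linear intensity with nearly equal column medians (92.0 to 92.8 over non-control spots). The sources used here do not say how it was normalized. Probes were named through RefSeq accessions with the GRCm38.p6 gene table, which gave symbols to 26582 of 55681 probes. Spots of a probe were averaged, outlier spots left out. Tests used the log2 processed intensity after each array's 75th percentile was taken off. Probes well above background on at least 3 of 11 arrays were kept (33630, less 18 with a missing value). A model of 4 group means was fitted to all arrays in limma 3.58.1 (R 4.3.3, prior degrees of freedom 1.87), with 2-sided p-values adjusted by Benjamini and Hochberg within a comparison. All groups entered 1 fit because 2 or 3 arrays per group limit the precision. The script was tested on simulated data. Dim probes and Ror2 were compared by 2-sided exact permutation of arrays. Every probe of the 6 genes is named. Of the lists, all paralogs and partners are named, and from the others genes with the smallest p, of which some are not reported here, while Evpl, Arc, Jun, Erbb3, Mbp, Pou3f1, Plvap and Pecam1 were picked after their values were seen. Lists use the brightest probe per gene. In medians with dim groups at their bound, a value with no bound stands at 0. The genes and lists were chosen with earlier results of these data known. Alternatives were median and quantile scaling, normexp (offset 50) on the median signal, since no mean signal was among the columns, the authors' table, other filters, slide and replicate blocks, array weights, single arrays left out and single comparisons fitted alone. Same-numbered samples did not deviate together (correlations -0.03 to 0.04). Figures were drawn with matplotlib 3.10.9.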

Additional observations from a re-analysis of the deposited data

How the results depend on the processing

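Of 30 member differences, the 8 called ones kept their direction under every alternative run (21 or 22 each), and Sox10, as described, was the only one to lose its call. Counts of called members moved by over 1.5 times under 3 settings: to 1 in basal cells between hairpins after normexp and with the authors' table (Trp63 A_51_P216550), and to 1 in luminal cells with array weights (Mef2c). The Ror2 difference in basal cells ranged from -1.19 to 0.0507 with single arrays left out, turning positive without basal shROR2 replicate 2. Hairpin differences near 0 changed sign. Trp63 A_51_P216550 in luminal cells became 0.0373 after normexp and 0.0337 in the authors' table, and ran from -1.69 to 0.95 with arrays left out. Luminal Id4, dim under both hairpins, became -0.0108 after quantile scaling, -0.0780 after normexp and -0.0908 in the authors' table (-0.0854 to 0.106 with arrays left out), and luminal Sox10 0.00371 with median scaling and 0.0161 with the slide as a block (-0.122 to 0.101). The difference between compartments for Bcl11b became -0.344 after normexp, -0.305 in the authors' table and -0.0535 with array weights (-0.38 to 0.55), and that of Trp63 A_51_P216550 ran from -1.95 to 0.69, positive without luminal shROR2 replicate 1. The cause was not tested. All probes called between hairpins in basal cells numbered 298, but 611 after normexp and in the authors' table, 150 unfiltered, 145 with the slide block, 33 with array weights, 32 with the replicate block, 0 with only those groups fitted, and 20 to 999 with arrays left out. The number of called probes in the luminal comparison was 1, and 0 to 63 under other settings. The difference between compartments called 0, and 0 to 11. With the replicate number as a block, Jag1 and Des lost their calls in basal cells between hairpins, Sox10 in shROR2 lost its call (adjusted p = 0.0507) and no other member call changed. Signals near background limit Trp63 in luminal cells, Bcl11b, Mef2c and Myocd.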
